A study of Mus musculus with 12 samples.

Results

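Cholesterol synthesis was followed in mouse liver through 9 of its enzymes, Hmgcs1, Mvd, Idi1, Fdps, Fdft1, Sqle, Lss, Cyp51 and Hsd17b7, out of 20422 genes with values on the array. A gene was counted through the probe sets annotated to its symbol alone, and its value in a sample was the mean log2 intensity of those probe sets. All 9 genes were found, with 103 probe sets together, and 1 further probe set shared by Fdft1 and Ctsb was left out. The samples were 12 Affymetrix Mouse Gene 1.0 ST arrays, each hybridised with liver RNA pooled from 5 male C57Bl/6J mice that were 20 weeks old and had been fasted overnight, with 3 pools for the 15 mice of each diet. On the MSG + TFA diet the mice drank water with monosodium glutamate (MSG, a flavour enhancer) at 0.75 g/L. On the ASP + TFA diet the water held the sweetener aspartame (ASP) at 0.25 g/L, and on the ASP + MSG + TFA diet it held both at these doses. On the TFA diet the water held neither. Every group ate the same feed with 20% (w/w) partially hydrogenated shortening and 8.68% trans fatty acids (TFA). The dams were placed on the diets 3 weeks before mating, and the offspring were weaned onto them at 4 weeks, so no comparison here is with a diet free of trans fat or with an additive given only to adults. Because mice were pooled, the spread given below is that between pools and not between animals.

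The pathway makes cholesterol from acetyl-CoA. Its early enzymes build mevalonate and turn it into activated isoprene units, its middle enzymes join these units into farnesyl diphosphate and squalene, and its late enzymes close squalene into lanosterol and trim that sterol to cholesterol. In liver, a main site of synthesis, the genes are known for being switched on together by SREBP2, a membrane-bound transcription factor that is cleaved and released to the nucleus when sterol in the endoplasmic reticulum runs low. SREBP2 binds sterol regulatory elements in promoters and usually works beside the factors NF-Y, which reads CCAAT boxes, and Sp1, which reads GC boxes.

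The promoters are shown first, since the genes of the pathway are known for sharing these elements. RefSeq promoter sequences (build GRCm38.p6, 250 bases before to 50 after the start of the gene) were matched for 6 of the 9 genes, and Fdps, Fdft1 and Sqle had none. The 150 bases before each start are printed 5′ to 3′ on the strand of the gene, in lower case, with matches in capitals to TCACNCCAC (a form of the sterol regulatory element), CCAAT and GGGCGG, each searched on both strands, so that ATTGG and CCGCCC are the same boxes read from the other strand.
Hmgcs1, chr13:119690201-119690350, plus strand: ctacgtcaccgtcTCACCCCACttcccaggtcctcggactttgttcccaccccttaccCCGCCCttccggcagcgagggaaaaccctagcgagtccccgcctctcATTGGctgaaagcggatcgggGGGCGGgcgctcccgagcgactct
Mvd, chr8:122443423-122443572, minus strand: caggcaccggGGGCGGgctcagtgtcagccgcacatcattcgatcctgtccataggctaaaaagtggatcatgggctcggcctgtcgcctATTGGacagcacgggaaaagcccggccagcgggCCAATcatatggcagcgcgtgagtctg
Idi1, chr13:8885456-8885605, plus strand: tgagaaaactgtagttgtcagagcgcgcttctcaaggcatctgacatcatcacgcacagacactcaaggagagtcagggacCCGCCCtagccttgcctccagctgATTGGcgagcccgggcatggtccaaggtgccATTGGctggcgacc
Lss, chr10:76531455-76531604, plus strand: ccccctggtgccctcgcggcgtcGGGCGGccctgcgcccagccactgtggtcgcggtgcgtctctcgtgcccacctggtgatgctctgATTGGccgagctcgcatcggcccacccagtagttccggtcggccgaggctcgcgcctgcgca
Cyp51, chr5:4104698-4104847, minus strand: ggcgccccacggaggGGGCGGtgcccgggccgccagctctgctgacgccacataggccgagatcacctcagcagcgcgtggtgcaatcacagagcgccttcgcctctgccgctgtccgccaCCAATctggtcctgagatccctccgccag
Hsd17b7, chr1:169969206-169969355, minus strand: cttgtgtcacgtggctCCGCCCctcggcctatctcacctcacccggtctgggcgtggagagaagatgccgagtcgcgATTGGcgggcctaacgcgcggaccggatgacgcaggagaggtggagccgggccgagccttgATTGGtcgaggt
All 6 promoters held a CCAAT box, against 37.4% of 32851 promoters of the same length, and all 6 held a GC box, against 35.7%. Of 9 promoters matched for other genes of the pathway, 9 held a CCAAT box and 8 a GC box. The sterol element in this spelling was found in 1 of the 6, Hmgcs1, at bases -137 to -129 counted from the start, and in 1.24% of all promoters. No motif overlapped another in these windows. A match is a description of the letters and not a measured binding site.

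On the arrays, all 9 enzymes had lower mean log2 intensities in each group that received an additive than in the TFA group, but no enzyme passed the test across all genes in any comparison. The median log2 fold change of the 9 was -0.25 for MSG + TFA, -0.28 for ASP + TFA and -0.41 for ASP + MSG + TFA, each against the same 3 TFA pools, while the medians over all 20422 genes were 0.0036, 0.022 and 0.0072 and 48.7%, 42.7% and 47.8% of all genes were lower. The 9 were chosen with earlier results of these data known, so these shares are a description and not a test of the pathway. For 9 other measured genes of the pathway the medians were -0.09, -0.12 and -0.06. Among the 9 enzymes the widest difference was that of Sqle in ASP + MSG + TFA livers (-0.70, a 0.62-fold level) and the narrowest that of Fdps in ASP + TFA livers (-0.15). The tests came from a limma model of the 12 arrays with Benjamini-Hochberg adjustment over all genes of a comparison, and calls needed an adjusted p below 0.05. At that threshold 0 of the 9 were called in MSG + TFA against TFA, where 0.0196% of all genes were, 0 in ASP + TFA against TFA (0.284% of all genes), and 0 in ASP + MSG + TFA against TFA (0.0392% of all genes). At an unadjusted p under 0.05, 1 enzyme was lower with MSG (Mvd), 1 with ASP (Cyp51) and 6 with both additives (Mvd, Idi1, Fdft1, Sqle, Cyp51 and Hsd17b7), where 3.05%, 3.47% and 4.38% of all genes were lower. These counts moved with the processing. With ASP they were 4 after a further quantile normalization (4.72% of all genes), 2 with arrays centred on their medians (4.49%) and 5 with array weights (8.23%). They were 0 with brighter probe sets alone (4.56%) or medians of probe sets (3.81%). With MSG they were 2 after the further normalization (3.3%) or with medians of probe sets (3.02%). They were 3 with array weights (4.95%) and 0 with brighter probe sets (3.37%). With both additives they ran from 5 with brighter probe sets (4.66%) to 8 with array weights (7.49%). No enzyme was higher at that p, which 2.77% of genes were with MSG, 6.66% with ASP and 5.68% with both. These 3 comparisons share the TFA pools, so a direction seen in each of them is not counted as 3 independent results.

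**Figure D1:**
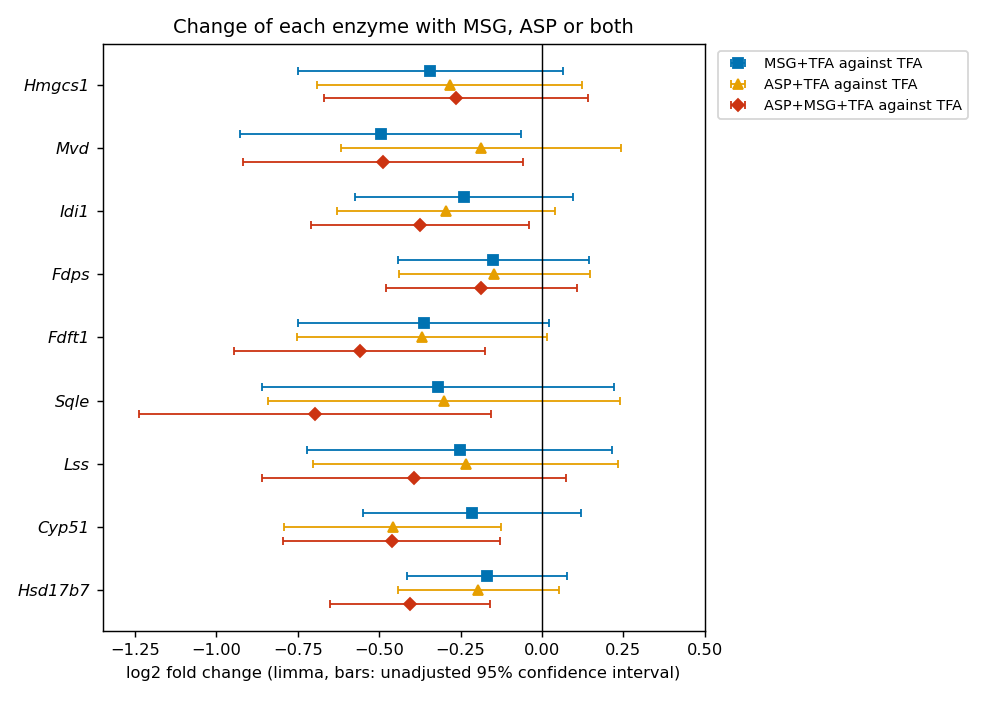
Log2 fold change of each enzyme (x axis) for livers given MSG (squares), ASP (triangles) or both (diamonds) against TFA livers, with 3 pools per diet; bars are unadjusted 95% confidence intervals from limma. All 27 points lie left of 0, from -0.70 to -0.15, and 8 of the 27 intervals exclude 0.

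The early enzymes were Hmgcs1, Mvd and Idi1. Hmgcs1, the cytosolic synthase that condenses acetoacetyl-CoA with acetyl-CoA to HMG-CoA, had log2 intensities of 10.28, 10.55 and 10.50 in the MSG + TFA pools, 10.72, 10.65 and 10.13 in the ASP + TFA pools and 10.14, 10.48 and 10.95 in the ASP + MSG + TFA pools, against 10.59, 10.81 and 10.95 in the TFA pools. The 3 MSG + TFA pools lay below the lowest TFA pool, while ASP + TFA and ASP + MSG + TFA each had pools within the TFA range. MSG gave a log2 fold change of -0.34 ± 0.19, ASP of -0.28 ± 0.19 and both of -0.26 ± 0.19 (± standard error from limma, as for all fold changes below), with adjusted p-values of 0.89, 0.677 and 0.658. Hmgcs1 was the only enzyme of the 9 whose mean was lowest on MSG + TFA and highest, after TFA, on ASP + MSG + TFA, but those 3 additive groups differed from one another by 0.08 or less on the log2 scale.

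Mvd, which decarboxylates mevalonate diphosphate to isopentenyl diphosphate, read 6.23, 6.59 and 6.64 in MSG + TFA livers, 7.01, 6.92 and 6.46 in ASP + TFA livers and 5.99, 6.57 and 6.93 in ASP + MSG + TFA livers, against 6.92, 7.10 and 6.93 in TFA livers. With MSG all 3 pools were below the TFA pools, and with both additives pool 3 reached them. The difference was -0.50 ± 0.20 with MSG (0.71-fold, unadjusted p = 0.0271, adjusted p = 0.798) and -0.49 ± 0.20 with both additives (0.71-fold, adjusted p = 0.44), against -0.19 ± 0.20 with ASP (adjusted p = 0.831). Mvd was the dimmest of the 9, close to the median intensity of the arrays (6.91 to 6.96), and its unadjusted call with MSG was lost when only brighter probe sets were averaged (-0.43, adjusted p = 0.867).

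Idi1, the isomerase that interconverts isopentenyl and dimethylallyl diphosphate, read 10.81, 10.99 and 10.66 with MSG, 11.08, 10.58 and 10.63 with ASP and 10.43, 10.61 and 11.01 with both, against 10.97, 11.20 and 11.01 on TFA alone. Each additive group had a pool inside the TFA range, so no group separated from it. Its log2 fold changes were -0.24, -0.30 and -0.37, all with a standard error of 0.16, and the last had an unadjusted p of 0.0311 and an adjusted p of 0.446.

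The middle enzymes were Fdps and Fdft1. Fdps makes farnesyl diphosphate, the branch point from which dolichol, ubiquinone and prenyl groups are also drawn. Its values were 9.12, 9.14 and 8.93 in MSG + TFA pools, 9.41, 8.90 and 8.89 in ASP + TFA pools and 8.96, 8.92 and 9.20 in ASP + MSG + TFA pools, against 9.05, 9.33 and 9.26 in TFA pools. The 4 groups overlapped, and Fdps had the smallest differences of the 9 enzymes in each comparison with TFA, at -0.15, -0.15 and -0.19 (adjusted p of 0.966, 0.796 and 0.665).

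Fdft1, squalene synthase, commits farnesyl diphosphate to sterols. It read 10.61, 10.94 and 10.56 with MSG, 10.96, 10.72 and 10.41 with ASP and 10.30, 10.25 and 10.97 with both, against 10.98, 11.14 and 11.07 in TFA livers. Every pool that received an additive was below all TFA pools, although ASP + MSG + TFA pool 3 missed them by a margin smaller than the spread between TFA pools. The log2 fold change was -0.56 ± 0.18 with both additives (0.68-fold, unadjusted p = 0.00759, adjusted p = 0.322), -0.37 ± 0.18 with ASP and -0.36 ± 0.18 with MSG. Of its 5 probe sets the dimmest, at a mean of 6.54, gave -1.29 in ASP + MSG + TFA livers and the other 4, at 11.08 to 12.58, gave -0.43 to -0.33, so that the gene's difference was -0.38 from brighter probe sets alone (adjusted p = 0.417). In MSG + TFA livers the same dim probe set moved the difference by more, to -0.16 without it (adjusted p = 0.953).

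The late enzymes were Sqle, Lss, Cyp51 and Hsd17b7. Sqle, the monooxygenase that oxidises squalene to its epoxide and is a rate-limiting step of the later pathway, had the widest range of the 9. Its log2 intensities were 8.10, 8.43 and 8.37 in MSG + TFA pools, 8.87, 8.36 and 7.72 in ASP + TFA pools and 7.50, 7.83 and 8.44 in ASP + MSG + TFA pools, against 8.44, 8.73 and 8.68 in TFA pools. The MSG + TFA and ASP + MSG + TFA pools were all below the TFA pools, the highest of each by a margin far smaller than the spread between TFA pools, while ASP + TFA pool 1 was the highest of all 12 pools. With both additives the pools averaged 7.92 ± 0.48, against 8.62 ± 0.16 on TFA alone (SD, n = 3 pools each), a difference of -0.70 ± 0.25 (95% confidence interval -1.24 to -0.16, adjusted p = 0.373).

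Lss, which closes the epoxide of squalene into lanosterol, read 8.03, 8.30 and 8.06 with MSG, 8.57, 8.21 and 7.66 with ASP and 7.59, 7.90 and 8.48 with both, against 8.29, 8.48 and 8.38 on TFA alone. All 3 additive groups had a pool within or above the TFA range. Its differences were -0.25, -0.23 and -0.39, each with a standard error of 0.22, and none reached an unadjusted p of 0.05.

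Cyp51, the P450 that removes the 14-alpha methyl group of lanosterol, had the smallest unadjusted p of the 9 enzymes in ASP + TFA livers. It read 9.24, 9.39 and 9.14 in MSG + TFA pools, 9.42, 8.94 and 8.68 in ASP + TFA pools and 8.84, 8.94 and 9.25 in ASP + MSG + TFA pools, against 9.43, 9.46 and 9.53 in TFA pools. None of the 9 pools with an additive reached the lowest TFA pool, but ASP + TFA pool 1, at 9.42, came close to it. The difference was -0.46 ± 0.16 with ASP (0.73-fold, unadjusted p = 0.0107, adjusted p = 0.316), -0.46 ± 0.16 with both (adjusted p = 0.341) and -0.22 ± 0.16 with MSG (adjusted p = 0.932). When arrays were weighted by their quality, Cyp51 in ASP + TFA livers was the only call among the 9, at an adjusted p of 0.03. With these weights 670 of all genes were called in ASP + TFA against TFA, against 58 without them, so the call was not particular to Cyp51. The unadjusted p of Cyp51 in ASP + TFA livers was no longer under 0.05 when only brighter probe sets were averaged (-0.37, adjusted p = 0.535). Nor was it under 0.05 when the median of the Cyp51 probe sets was taken (-0.29, adjusted p = 0.737).

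Hsd17b7, a sterol ketone reductase that acts after the C4 methyl groups are removed, read 9.51, 9.66 and 9.50 with MSG, 9.76, 9.46 and 9.37 with ASP and 9.28, 9.15 and 9.53 with both, against 9.70, 9.74 and 9.74 in TFA livers. The MSG + TFA and ASP + MSG + TFA pools were all below the TFA pools, and ASP + TFA pool 1 was above them. The TFA pools lay within an SD of 0.022, and the difference with both additives was -0.41 ± 0.11 (0.75-fold), with the smallest unadjusted p of the 9 enzymes (0.00329) and an adjusted p of 0.28.

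**Figure D2:**
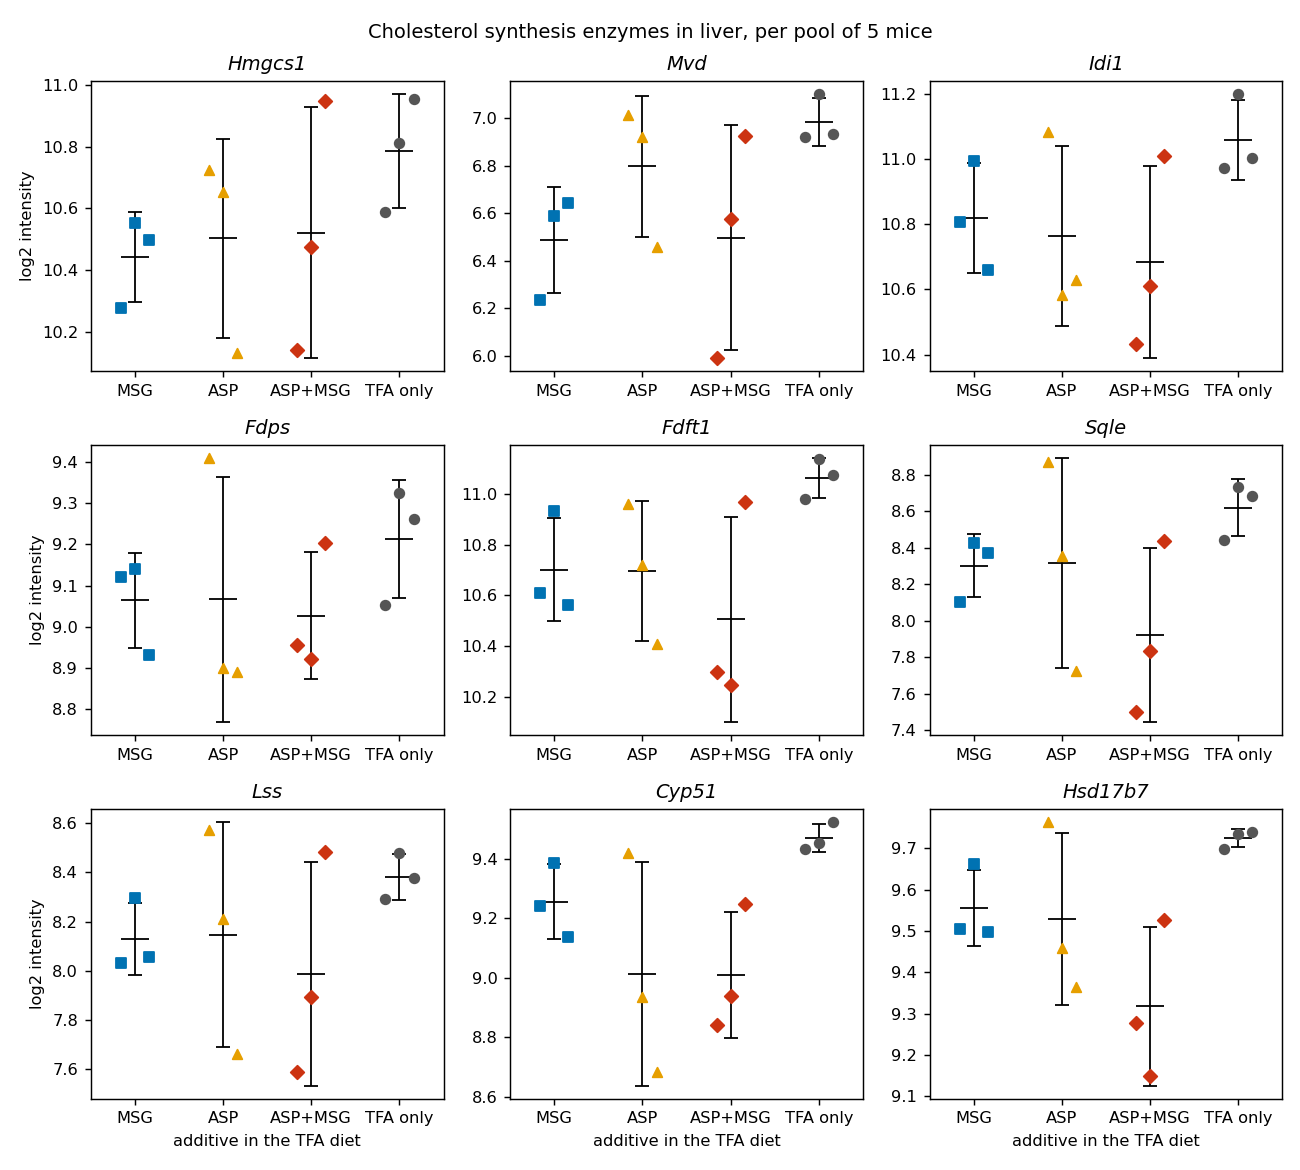
Log2 intensity (y axis) of each enzyme in the 12 pools, 1 panel per gene with its own scale; points are pools of 5 mice, the long line is the diet mean and the bar its SD over 3 pools. ASP + TFA and ASP + MSG + TFA pools spread further than TFA pools in all 9 panels, as in Cyp51 with SDs of 0.38 and 0.21 against 0.048.

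Counted by pools, 6 enzymes had all 3 MSG + TFA pools below all 3 TFA pools (Hmgcs1, Mvd, Fdft1, Sqle, Cyp51 and Hsd17b7), where 6.75% of all genes did. Fdft1 and Cyp51 did so with ASP (4.92% of all genes), and Fdft1, Sqle, Cyp51 and Hsd17b7 with both additives (7.9% of all genes). No enzyme had all pools of an additive group above the TFA pools, as 6.45%, 8.48% and 10% of all genes had. With a 1.4-fold change required beside an unadjusted p under 0.05, 1 enzyme was lower with MSG (Mvd), 0 with ASP and 3 with both (Mvd, Fdft1 and Sqle), against 0.367%, 0.504% and 0.548% of all genes. The enzymes varied together over the pools, so these counts are not counts of independent genes.

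Adding the second additive, and setting the additives against each other, gave smaller differences. In ASP + MSG + TFA against ASP + TFA livers 8 of the 9 enzymes had lower means, with a median log2 fold change of -0.16 and a range from -0.39 (Sqle) to 0.02 (Hmgcs1). Against MSG + TFA livers 7 of the 9 did, with a median of -0.14 and a range from -0.38 (Sqle) to 0.08 (Hmgcs1). In ASP + TFA against MSG + TFA livers the 9 were split, 4 lower and 5 higher, from -0.24 for Cyp51 to 0.31 for Mvd. None of these was called (0 of 9 in each, against 0.0245%, 0.0049% and 0% of all genes), and none reached an unadjusted p of 0.05, as 8.41%, 6.14% and 5.7% of all genes did. The 95% interval of Sqle for both additives against ASP, -0.93 to 0.15, left room for a difference as wide as that against TFA. The interaction term, which asks whether both additives together differ from the sum of their separate effects, had a median of 0.16 over the 9 enzymes and ran from -0.08 (Sqle) to 0.36 (Hmgcs1), with adjusted p-values of 0.831 to 0.983 (0 of 9 called, 0.0686% of all genes; 0 of 9 at an unadjusted p under 0.05, 7.39% of all genes). The overall F test for diet gave an unadjusted p under 0.05 for Hsd17b7 (0.0256), Cyp51 (0.0288) and Fdft1 (0.0481), which 9.16% of all genes did, and adjusted p-values of 0.48 or more for all 9 (0.113% of all genes called).

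In the order of the diet means, TFA was highest for all 9 enzymes. ASP + MSG + TFA was lowest for 7 and MSG + TFA for Hmgcs1 and Mvd. Neighbours in these orders differed by 0.38 or less on the log2 scale and none at an unadjusted p under 0.05, while ASP + MSG + TFA and TFA did so for the 6 enzymes named above, in whose orders they were not neighbours.

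Pools of the ASP + TFA and ASP + MSG + TFA diets differed from one another more than the diet means did. Centred on each gene's mean over the 12 arrays and averaged over the 9 enzymes, the profile was -0.13, 0.10 and -0.08 in MSG + TFA pools 1, 2 and 3, 0.30, -0.04 and -0.35 in ASP + TFA pools and -0.45, -0.27 and 0.18 in ASP + MSG + TFA pools, against 0.14, 0.32 and 0.27 in TFA pools. All 9 enzymes were below their own means in ASP + TFA pool 3 and in ASP + MSG + TFA pools 1 and 2, and none was in ASP + TFA pool 1 or in TFA pools 2 and 3. ASP + TFA pool 1 thus stood with the TFA pools, and so did ASP + MSG + TFA pool 3, where Cyp51 was the enzyme furthest below its TFA level. Between pairs of the 9 genes, Pearson's r over the 12 pools ran from 0.54 to 0.96 with a median of 0.85 (36 pairs), and from 0.45 to 0.98 with a median of 0.86 once diet means were subtracted. These correlations are descriptions, since the values of a pool come from the same RNA and array.

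**Figure D3:**
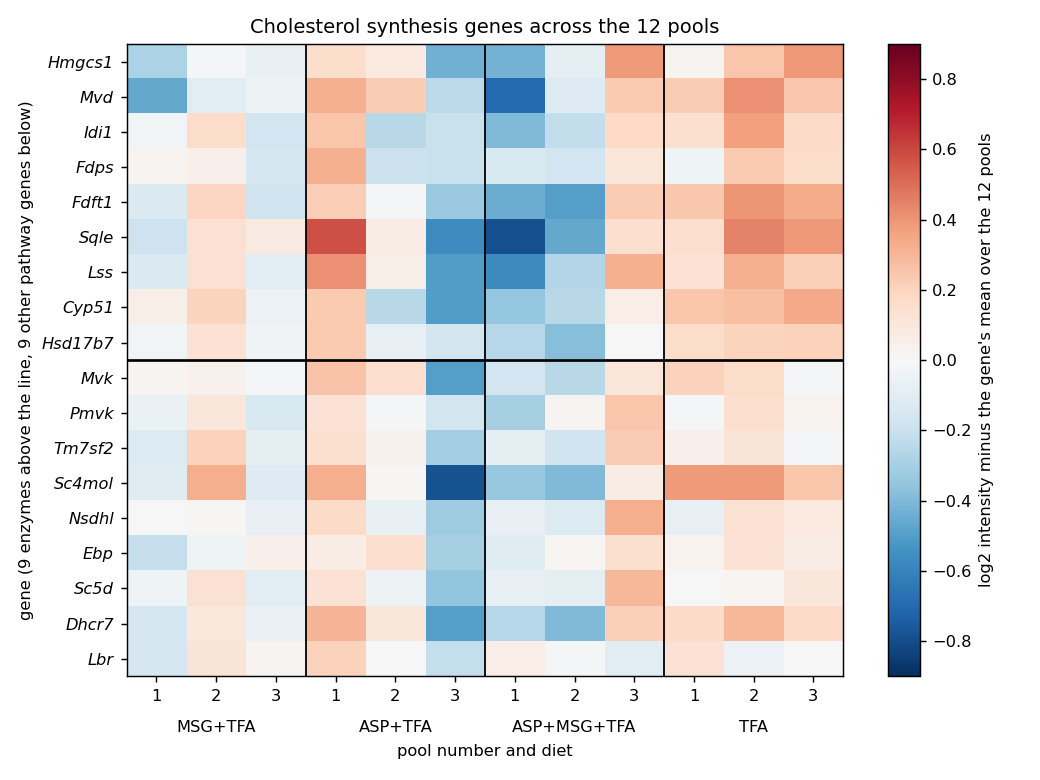
Log2 intensity minus the mean over the 12 pools (colour) for the 9 enzymes above the line and 9 other genes of the pathway below it, with pools in columns by diet. ASP + TFA pool 3 and ASP + MSG + TFA pools 1 and 2 are blue through the upper block, with means of -0.35, -0.45 and -0.27, while ASP + TFA pool 1 and the TFA pools are mostly red.

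Transcripts of tissues other than hepatocytes also set pools apart, and the 3 pools lowest in cholesterol enzymes were the 3 with the most pancreatic acinar transcripts. Averaged over 13 markers of acinar cells, among them the digestive enzymes Cpa1, Ctrb1 and Pnlip, log2 intensity was 6.78, 6.69 and 6.13 in MSG + TFA pools, 6.05, 6.20 and 8.91 in ASP + TFA pools and 8.02, 8.32 and 6.18 in ASP + MSG + TFA pools, against 6.13, 7.45 and 7.46 in TFA pools. None of the 13 was called in a comparison with TFA, and none was at 0, which this scale does not have. TFA pools 2 and 3, with acinar means of 7.45 and 7.46, had enzyme profiles of 0.32 and 0.27. The same 3 pools had the lowest means of 7 macrophage markers, at 8.38 for pool 3 of ASP + TFA and 8.40 and 8.39 for pools 1 and 2 of ASP + MSG + TFA, against 8.52 to 8.70 in the other 9. Of these markers Cd5l (-0.44, adjusted p = 0.231), Vsig4 (-0.34, adjusted p = 0.298) and Emr1 (-0.30, adjusted p = 0.427) had the smallest p for diet, with values for ASP + MSG + TFA against TFA, and 0 of the 7 were called. The mean of 18 hepatocyte markers was 13.21 to 13.39 in all pools and highest in ASP + TFA pool 1, with 0 of 18 called. Pearson's r of the enzyme mean with the macrophage mean was 0.91 over the 12 pools and 0.74 over the 9 without the 3 lowest pools. With the acinar mean r was -0.59 and 0.36. Stellate and endothelial markers gave 0.76 and 0.43, and adipocyte markers gave -0.62 and -0.34. Over the 12 pools r was 0.31 for skeletal muscle, 0.19 for hepatocyte, 0.09 for blood cell and -0.17 for cholangiocyte markers. In bulk liver, fewer cells of a type and less RNA per cell cannot be told apart.

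**Figure D4:**
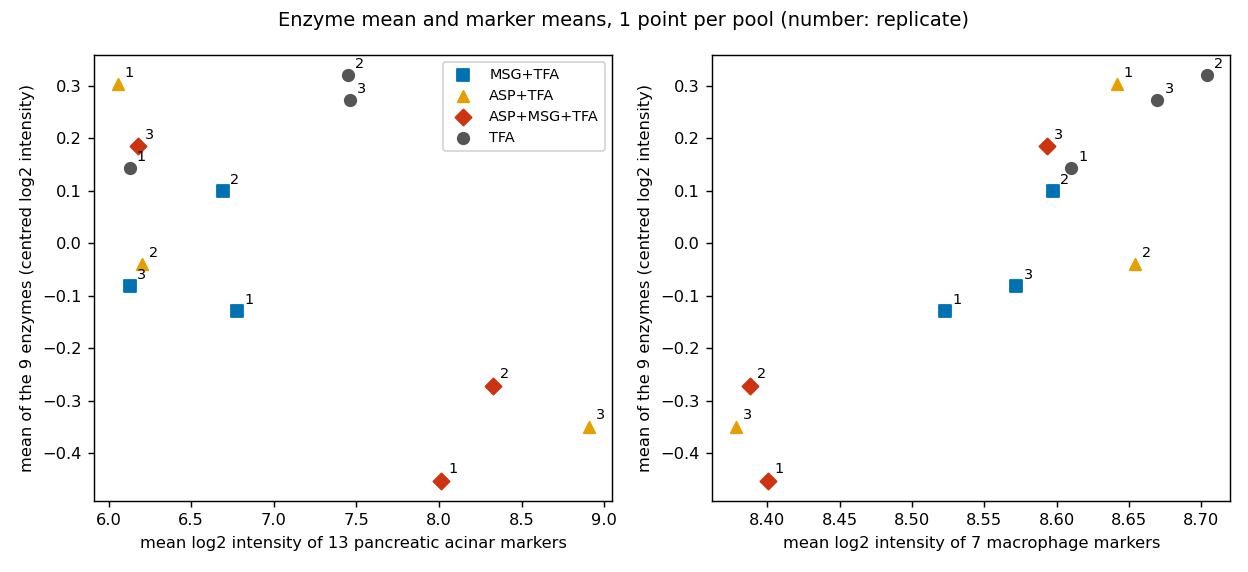
Mean of the 9 enzymes in each pool (y axis, log2 intensity centred on each gene's mean) against the mean of 13 pancreatic acinar markers (left) and of 7 macrophage markers (right), both in log2 intensity, 1 point per pool with its number. The 3 pools at the bottom, between -0.45 and -0.27, have acinar means of 8.02 to 8.91 and macrophage means of 8.38 to 8.40.

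Leaving these 3 pools out kept 1 ASP + MSG + TFA pool and 2 ASP + TFA pools. As they were also the 3 lowest in the enzyme mean, dropping them had to raise both diets, whatever their acinar content. The refit therefore cannot tell what acinar transcripts contribute. The median log2 fold change of the 9 enzymes was then -0.059 for ASP + MSG + TFA against TFA, with 7 of 9 lower, while Hmgcs1 (0.16) and Lss (0.10) were above TFA. It was -0.10 for ASP + TFA against TFA, with 8 of 9 lower and Lss at 0.01. For MSG + TFA, which lost no pool, the median stayed at -0.25 and all 9 stayed lower, as only the shared estimate of the spread changed. The part of the acinar and macrophage transcripts in the enzyme differences was not tested. Muscle transcripts set the TFA pools apart too. The mean of 14 skeletal muscle markers was 5.93 to 6.35 in MSG + TFA, 5.90 to 6.12 in ASP + TFA and 6.02 to 6.44 in ASP + MSG + TFA livers, against 6.55 to 6.98 in TFA livers. All 14 were lower with MSG and with ASP, and 13 with both. At an unadjusted p under 0.05, 12, 11 and 11 were lower (3.05%, 3.47% and 4.38% of all genes). In ASP + TFA livers 8 of the 14 were called, such as Ttn (-1.23, adjusted p = 0.0123) and Tnnc2 (-1.13, adjusted p = 0.017), where 0.284% of all genes were. With MSG and with both, 0 were called. Their part was not tested either.

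Left out in turn, single pools moved the medians as follows. The median for ASP + TFA against TFA was -0.10 without ASP + TFA pool 3 and -0.45 without ASP + TFA pool 1. The enzymes lower at an unadjusted p under 0.05 then numbered 0 (4.43% of all genes) and 6 (4.26%), against 1 with all pools (3.47%). They numbered 3 (3.5%) without ASP + MSG + TFA pool 3, which entered only the shared estimate of the spread. For ASP + MSG + TFA against TFA, dropping its pool 1 gave a median of -0.25 and dropping its pool 3 gave -0.58. Such enzymes then numbered 3 (3.53%) and 8 (4.92%), against 6 (4.38%). In MSG + TFA against TFA the median stayed between -0.34 and -0.22. The unadjusted count there was 0 without MSG + TFA pool 1 (2.63%) or TFA pool 2 (2.06%). It rose to 3 without ASP + MSG + TFA pool 3 (3.11%).

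The single probe sets, from which the gene means were averaged, leaned the same way. Of 103, 94 were lower with MSG, 85 with ASP and 95 with both, where 49.2%, 47.4% and 50.2% of all 212138 probe sets were. At an unadjusted p under 0.05, 10, 12 and 26 were lower (3.46%, 4.54% and 4.09% of all probe sets), and 1, 0 and 0 higher. With both additives the probe sets below that p numbered 6 of 13 for Sqle, 5 of 13 for Cyp51, 5 of 11 for Hsd17b7, 3 of 9 for Idi1, 2 of 10 for Mvd, 2 of 5 for Fdft1, 2 of 22 for Lss, 1 of 13 for Hmgcs1 and 0 of 7 for Fdps. Every probe set of Mvd, Fdft1 and Hsd17b7 was lower in that comparison, while Cyp51 had 1 at 0.47, among its dimmest, and Sqle ran from -1.39 to 0.25. None was called after adjustment over all probe sets, and probe sets of a gene share their sample.

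**Figure D5:**
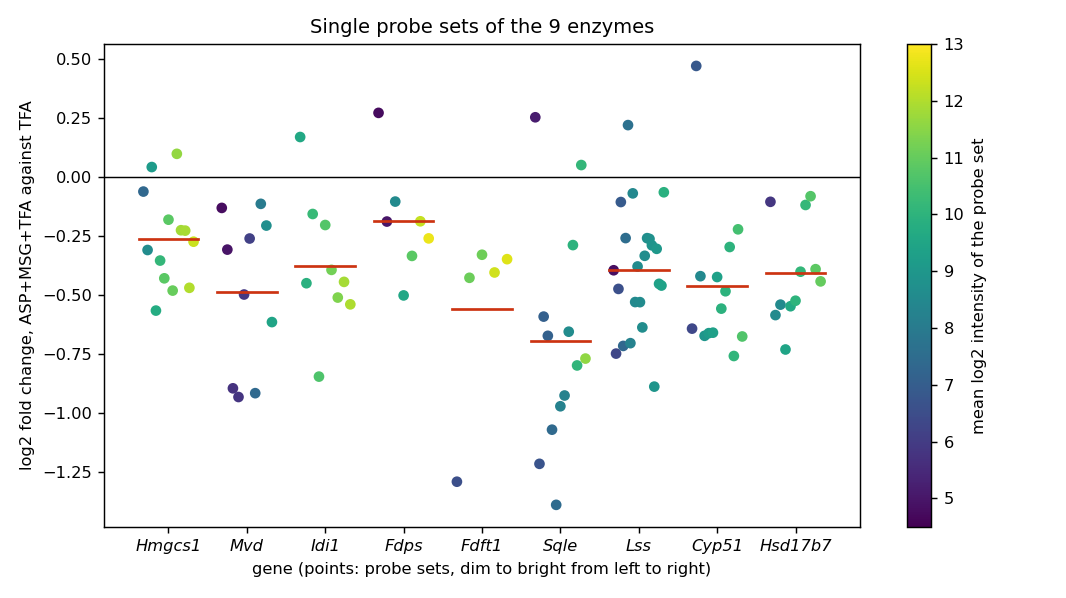
Log2 fold change of single probe sets (y axis) for ASP + MSG + TFA against TFA livers, grouped by enzyme, with the colour giving the mean log2 intensity and the red line the gene value. 95 of 103 points lie below 0, and the lone Fdft1 point at -1.29 is its dimmest.

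The rest of the pathway was read through 9 of 12 further genes, which were listed with earlier results of these data known. None of the 9 was called in any comparison with TFA, and all 9, all 9 and 8 of 9 had lower means with MSG, ASP and both, at medians of -0.09, -0.12 and -0.06. Sc4mol, the file's name for the C4 sterol methyl oxidase Msmo1, was as low as the 9 enzymes, at -0.31, -0.49 and -0.56 (adjusted p of 0.932, 0.476 and 0.414). Dhcr7, which makes cholesterol from 7-dehydrocholesterol in the last step of a branch, was at -0.25, -0.24 and -0.36 (adjusted p of 0.933, 0.715 and 0.535), and Mvk, the mevalonate kinase, at -0.10, -0.15 and -0.22. The other 6, Pmvk, Tm7sf2, Nsdhl, Ebp, Sc5d and Lbr, lay between -0.14 and 0.01.

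Outside the pathway the gene whose pattern over the 12 pools was most like the mean of the 9 enzymes was Ints2 (r = 0.93), an Integrator subunit, after Dhcr7 (r = 0.93) of the pathway itself. The other 8 of the 10 most like genes were the cytoplasmic actin Actg1, the chaperonin subunit Cct5, Ino80d, Rnf126, the RNA polymerase II subunit Polr2i, the importin Kpna4, the GTPase Arf4 and Hspa13, with r between 0.90 and 0.91, a gene model with no name being left out. Over all 20413 other genes the median r was -0.01, and the 95th percentile was 0.67. Sc4mol stood at rank 15 (r = 0.89), Pmvk at 153, Mvk at 227 and Lbr, a lamin B receptor with sterol reductase activity, at 4905 (r = 0.36). The resemblance is a description over 12 pools, within each of which all genes share RNA and array, and the 10 were picked for it.

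Genes that sense or move sterols were split in direction. Of 10 measured SREBP2 regulators and uptake genes 0 were called, 2, 4 and 5 had lower means with MSG, ASP and both, and the list's median was 0.05, 0.05 and -0.01 in these comparisons. Npc1l1, the sterol uptake transporter, was at 0.16, 0.11 and 0.23 (adjusted p of 0.89, 0.733 and 0.365). It was dim, with log2 intensities of 5.79 to 6.19 against array medians of 6.91 to 6.96. Mbtps2, the protease that makes the second cut in SREBP2, was at 0.05, 0.09 and -0.19. Insig2, which holds the SREBP escort in the endoplasmic reticulum, was at -0.14, 0.35 and 0.21. Of 9 genes of the LXR group, which senses oxysterols and drives efflux, 0 were called. The paired sterol exporters Abcg5 (0.30, 0.19 and -0.06) and Abcg8 (0.30, 0.24 and -0.11) had the smallest p for diet there (unadjusted 0.0372 and 0.0358), and the receptor Nr1h3 was at -0.27, -0.17 and -0.27.

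Genes that use or remove the products gave 0 calls as well. In 8 genes of cholesterol disposal the median was 0.02, 0.07 and -0.05. Cyp7b1, an oxysterol hydroxylase of bile acid synthesis, was at -0.26, 0.10 and -0.64 (adjusted p of 0.91, 0.893 and 0.213), and Nceh1, a cholesteryl ester hydrolase, at 0.06, 0.24 and -0.16. In the 10 genes of the isoprenoid branches, which start from the product of Fdps, the median was -0.02, 0.01 and -0.06, with Dhdds of dolichol synthesis at 0.10, 0.25 and 0.01 and Ggps1, which makes geranylgeranyl diphosphate, at -0.10, -0.19 and -0.28. Fatty acid synthesis, driven mainly by the related factor SREBP1, had a median over 12 genes of 0.05, -0.07 and 0.13. There the desaturase Scd1 was at 0.27, -0.07 and 0.41 (adjusted p of 0.87, 0.913 and 0.335) and the carboxylase Acacb at -0.07, -0.10 and 0.28, so that the members with the smallest p were higher, not lower, with both additives.

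Of the remaining marker lists, 0 of 7 adipocyte, 0 of 9 stellate and endothelial, 0 of 6 cholangiocyte and 0 of 5 blood cell markers were called in any comparison with TFA. Cidec (0.73, adjusted p = 0.207) and Cfd (0.84, adjusted p = 0.33) led the adipocyte list in ASP + MSG + TFA livers. The median of the 7 adipocyte markers there was 0.09, and 2 of the 7 were lower than in TFA livers. The 3 ASP + MSG + TFA pools had adipocyte means of 7.39 to 7.59, against 7.22 to 7.25 in TFA livers. Des (-0.27) and Lyve1 (-0.27) had the smallest p for diet of the stellate and endothelial list, Spp1 (-0.32) and Epcam (0.23) of the cholangiocyte list, and Cd79a (0.25) and Ptprc (-0.17) of the blood cell list, each given for ASP + MSG + TFA against TFA. The hepatocyte list was led by G6pc (0.21) and Hpx (-0.23), and the acinar list by Cela1 (0.40) and Cela3b (0.40).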

How the data were processed

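Liver RNA of 12 pools, 3 per diet, was hybridised to 12 Mouse Gene 1.0 ST arrays (Affymetrix). According to the methods and the labels, the authors used Partek to run the GCRMA background adjustment and a quantile normalization. The deposited values are linear intensities from 14.8 to 68604, 1 per probe set and array. The background adjustment sets the scale at the dim end, so dim probe sets are the least certain, and the files give no detection calls, probe positions or genome build. Intensities were log2-transformed with nothing added. Of 241576 probe sets, 212138 had 1 gene symbol in the platform annotation, 4672 several and 24766 none. Probe sets of a symbol were averaged into 20422 gene values (median of 8 per gene).

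All diets entered a single linear model in limma 3.58.1 (lmFit and eBayes, R 4.3.3, package data.table, version 1.17.8), with contrasts against TFA, contrasts between additive diets, the interaction and an F test. Benjamini-Hochberg adjustment was done separately for each comparison. P-values rest on 1 spread per gene, estimated from the pools of all 4 diets together and moderated across genes. Scatter between pools differed by diet, as for Cyp51 with an SD of 0.048 on TFA and 0.38 on ASP + TFA. Precision is limited by having 3 arrays per diet. The test was checked on simulated data with known changes. Figures used matplotlib 3.10.9, with pandas 2.3.3, numpy 2.4.6 and Python 3.11.15, and promoter sequences came from RefSeq (GRCm38.p6).

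The 9 enzymes and the 14 other gene lists were chosen with earlier results of these data known. Genes named are the 9, 2 to 4 genes of each list with the smallest p of the F test, and the 10 genes most like the mean of the 9. Symbols that the annotation does not hold were not analysed here, and Ela2 was not used, since RefSeq gives that synonym to more than 1 gene. Alternatives were a further quantile normalization, centring on array medians, brighter probe sets, medians of probe sets, a variance trend, array weights, a replicate block, leaving out pools, unadjusted p with and without a 1.4-fold change, and one-way analysis of variance.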

Additional observations from a re-analysis of the deposited data

How the results depend on the processing

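No enzyme was called under the alternatives listed here except Cyp51 in ASP + TFA against TFA livers with array weights. That gave 1 enzyme (adjusted p = 0.03, range 0.03 to 0.737 over the 20 alternatives for that value). The same weights called 670 of all genes in that comparison, against 58 without them. Unadjusted p-values under 0.05 gave 1 enzyme for MSG + TFA, 1 for ASP + TFA, 6 for ASP + MSG + TFA against TFA and 3 for the F test, and 1 and 3 for MSG + TFA and ASP + MSG + TFA with a 1.4-fold change. Of 180 refitted fold changes of single enzymes per comparison, 0 changed sign for MSG + TFA, 2 for ASP + TFA and 2 for ASP + MSG + TFA against TFA, all for Hmgcs1 or Lss without ASP + TFA pool 3 or without the 3 pools richest in acinar transcripts, while 20, 17, 37 and 18 did for ASP + MSG + TFA against ASP + TFA, against MSG + TFA, for ASP + TFA against MSG + TFA and for the interaction. Without those 3 pools the median of the 9 enzymes was -0.059 for ASP + MSG + TFA against TFA and 0.19 against MSG + TFA, where Lss turned to 0.35, with the lone remaining ASP + MSG + TFA pool assumed to vary like the others. Those pools were also the 3 lowest in the enzyme mean, so a rise of these medians was built in, and the cause was not tested. Leaving out single pools, the medians ran from -0.34 to -0.22 for MSG + TFA, -0.45 to -0.10 for ASP + TFA and -0.58 to -0.25 for ASP + MSG + TFA against TFA, -0.32 to 0.05 for ASP + MSG + TFA against ASP + TFA, -0.34 to -0.01 against MSG + TFA, -0.17 to 0.14 for ASP + TFA against MSG + TFA and -0.02 to 0.30 for the interaction, and 0 enzymes were called in each.

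Counts over all genes moved more. In the order of MSG, then ASP, then both against TFA alone, ASP + MSG + TFA against ASP + TFA and against MSG + TFA, ASP + TFA against MSG + TFA, the interaction and the F test, they were 4, 58, 8, 5, 1, 0, 14 and 23. Leaving out single pools they ran from 3 to 6, 7 to 62, 1 to 16, 1 to 45, 0 to 4, 0 to 9, 1 to 21 and 4 to 28. Brighter probe sets alone gave 2, 7, 3, 3 and 0 for the first 5, 1 for the interaction and 6 for the F test, and medians of probe sets 2, 18, 1 and 1 for the first 4, 4 for the interaction and 1 for the F test. Array weights gave 14, 670, 76, 235 and 3 for the first 5, 142 for the interaction and 295 for the F test. Without the 3 acinar-rich pools they were 10 for MSG + TFA, 34 for ASP + TFA, 14 for ASP + MSG + TFA against ASP + TFA and 5 against MSG + TFA. Unadjusted, they were 1187, 2069, 2054, 1718, 1253, 1164, 1510 and 1871, and with a 1.4-fold change 124, 261 and 218 for the first 3. Plain one-way analysis of variance called 0 genes for diet. With the replicate block they were 14 for ASP + MSG + TFA against TFA, 6 for the interaction and 11 for the F test. The replicate numbers did not pair the pools: deviations of same-numbered pools correlated between -0.34 and 0.35 (median 0.029, 18 pairs) and those of differently numbered pools between -0.30 and 0.28 (median 0.00075, 36 pairs). The block called 0 enzymes. Further scaling moved the median of all genes by less than 0.03 on the log2 scale.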
